A study of Homo sapiens with 16 samples.

Results

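The 6 genes described here, CAV1, CAV2, CAVIN1, CAVIN2, CAVIN3 and EHD2, encode the core proteins of caveolae. Open chromatin at them was mapped in MDA-MB-231, an established human cell line from a breast adenocarcinoma, by ATAC-seq, which reads where a transposase can reach and cut the DNA. Every peak was taken whose summit lay in the body of a gene or within 50 kb of it on the GRCh38 assembly. This gave 77 peaks for selected cells on soft gel, 77 for selected cells on stiff gel, 67 for ancestral cells on soft gel and 74 for ancestral cells on stiff gel. Merged wherever they overlapped by at least 1 bp, they formed 90 regions, of 164016 in the whole genome.

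The 16 samples fell into 4 groups of 4, and the authors deposited 1 peak list per group. Selected cells had been kept for 75 days on soft polyacrylamide gel, with 20000 cells replated about every 7 days, and were then assayed on soft gel (1 kPa) or stiff gel (308 kPa). Ancestral cells, the starting population without that selection, were assayed on the same gels. All 4 groups carried the genotype WT and grew on gels coated with type I collagen, and libraries were made from 50000 nuclei per sample. The design asks whether chromatin differs between selected and ancestral cells on soft gel. Since a group has a single list with no replicate values, no difference below has a p-value, and the intervals given cover counting error only.

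Caveolae are flask-shaped pits of the plasma membrane, built from caveolins inserted in the membrane and a coat of cavins on its inner face. EHD proteins sit at the neck of the pit and hold it at the surface. Caveolae can flatten when the membrane is stretched, and they are known as a store of membrane area and as a site where signalling receptors gather.

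The annotated start regions of CAV1, CAV2, CAVIN2 and EHD2 were matched in a RefSeq promoter table (GRCh38.p14), which gave 7 start sites in windows of 300 bases, 250 before and 50 after the start. Each of these 7 windows lay wholly inside a peak in all 4 lists. The 250 bases before the first start of CAV1, CAV2 and CAVIN2 are shown because the CAV2 peak, relative to the median peak of its list, was lower in selected than in ancestral cells on each gel by more than counting error, while the CAV1 and CAVIN2 peaks were not. They are chr7:116524759-116525008 on the plus strand for CAV1, chr7:116499488-116499737 on the plus strand for CAV2 and chr2:191847089-191847338 on the minus strand for CAVIN2. Capitals mark motif matches on either strand, with the motifs named after the sequences.
CAV1: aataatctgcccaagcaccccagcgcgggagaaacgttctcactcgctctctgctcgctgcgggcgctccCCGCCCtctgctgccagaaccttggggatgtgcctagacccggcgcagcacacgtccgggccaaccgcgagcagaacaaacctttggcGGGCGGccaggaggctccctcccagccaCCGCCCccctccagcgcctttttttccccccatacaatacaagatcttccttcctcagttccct
CAV2: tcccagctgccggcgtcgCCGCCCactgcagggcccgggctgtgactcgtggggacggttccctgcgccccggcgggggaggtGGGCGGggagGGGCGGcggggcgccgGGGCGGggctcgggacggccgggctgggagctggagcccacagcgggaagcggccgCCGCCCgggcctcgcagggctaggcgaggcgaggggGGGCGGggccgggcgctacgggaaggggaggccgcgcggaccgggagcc
CAVIN2: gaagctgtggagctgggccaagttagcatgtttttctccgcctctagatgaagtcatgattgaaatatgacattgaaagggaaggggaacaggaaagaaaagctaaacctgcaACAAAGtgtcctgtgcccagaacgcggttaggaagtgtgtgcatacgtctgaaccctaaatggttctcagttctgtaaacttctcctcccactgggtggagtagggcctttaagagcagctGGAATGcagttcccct
The letters GGGCGG of a GC box occurred 6 times before the first start of CAV2, 3 times before that of CAV1 and once before that of EHD2, and not in the CAVIN2 window. Of 22199 promoter windows of this length, 56.3% held it. The CAVIN2 window held GGAATG, present in 12.2% of promoters, at -16 from the start. It also held ACAAAG, present in 13.6% of promoters, at -137. The other motifs searched on both strands were TATAAA (9.47% of promoters), CCAAT (34.7%), TGACTCA with its reverse complement TGAGTCA (4.01%), AACAATGG (0.667%) and the CArG box (1.25%), and these letters were not in any of the 7 windows. The share of G and C was 82.7% in the CAV2 window, 62.3% in the CAV1 window, 71.0% in the EHD2 window and 49.3% in the CAVIN2 window, against a median of 62.3% over all promoters.

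Peak height is given here as a level, which is the pileup at the summit divided by the median pileup of its list, so that 1 is the height of a middling peak. The list medians were 51 and 56 for selected cells on soft and stiff gel, and 111 and 132 for ancestral cells on soft and stiff gel. The start peak of a gene is its highest peak within 1 kb of an annotated start, or of either gene end for CAVIN1 and CAVIN3. All 6 genes had a start peak in all 4 lists, as did 69.8% of 18950 protein-coding genes. The highest level in the 90 regions that were not in all 4 lists was 1.48, while the start peaks of the 6 genes ranged from 3.57 to 28.4.

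Ratios below compare levels, and each is to be read beside the median over all shared regions or start peaks of the genome, since the divisor moves them all together. With the authors' fold enrichment in place of the level, the median of all shared regions moved by -0.86 on soft gel and -0.59 on stiff gel for selected over ancestral cells. Other divisors moved it by -0.26 to 0.17 for selected over ancestral cells. For soft over stiff gel, the scalings moved the median by up to 0.22 in ancestral cells and by -0.22 in selected cells. Higher levels in selected cells therefore depended on the scaling. Of 29 shared regions around the 6 genes that were higher in selected cells on soft gel by level, 7 were higher on fold enrichment and 19 when scaled to equal numbers of peaks. On stiff gel, 11 of 30 were higher on fold enrichment. Lower levels held on fold enrichment for 24 of 24 regions on soft gel and 33 of 33 on stiff gel. Fold enrichment moves selected over ancestral ratios downwards, so it could hardly turn a lower level round and is no check of it. Scaled to regions in all 4 lists, 19 of those 33 on stiff gel were still lower.

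**Figure D1:**
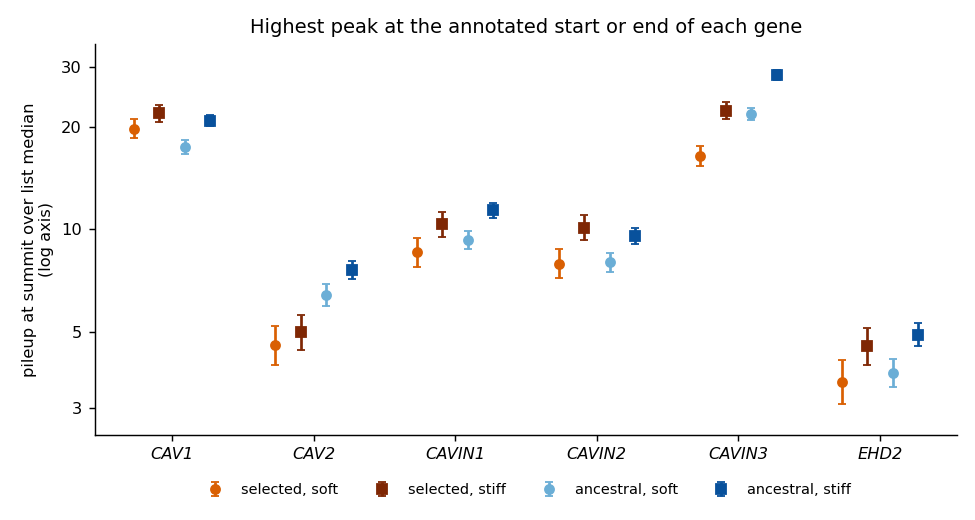
Level of the start peak of each gene (pileup at the summit over the median pileup of its list, log axis) in each of the 4 lists, with exact Poisson 95% counting intervals. CAV2 and CAVIN3 sit lower in selected than in ancestral cells on each gel, and all 6 genes sit lower on soft than on stiff gel within a population.

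CAV1 encodes caveolin-1, the membrane protein that forms the scaffold of a caveola. Its start peak (chr7:116524374-116528633) had a level of 19.8 in selected cells on soft gel, 21.9 in selected cells on stiff gel, 17.4 in ancestral cells on soft gel and 20.9 in ancestral cells on stiff gel. It was among the strong start peaks, at the percentiles 90.9, 90.7, 88.7 and 90.2 of all start peaks of the same lists. The 4 levels lay close together, with ancestral cells on soft gel lowest. The log2 ratio of selected over ancestral cells was 0.18 on soft gel (95% counting interval 0.07 to 0.29) and 0.07 on stiff gel (-0.03 to 0.17), beside medians of 0.02 and -0.04 over the start peaks of 13231 genes. The soft-gel value turned to -0.68 on the authors' fold enrichment, where the median of all shared regions was -0.71, and to -0.08 when scaled to equal numbers of peaks. The stiff-gel value turned to -0.52 on fold enrichment. In falling order of level, each list's ratio to the next had an interval that held 0, except selected over ancestral cells on soft gel at the low end.

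CAV2 encodes caveolin-2, which joins caveolin-1 in the same oligomers, and its gene ends 16468 bp before CAV1 begins. The CAV2 start peak (chr7:116498533-116502070) had a level of 4.57 on soft and 5.00 on stiff gel in selected cells, against 6.41 on soft and 7.61 on stiff gel in ancestral cells. Both selected lists thus lay below both ancestral lists. The log2 ratio of selected over ancestral cells was -0.49 on soft gel (-0.71 to -0.27) and -0.61 on stiff gel (-0.80 to -0.41), placing CAV2 at the percentiles 9.11 and 4.26 of all start peaks. The percentiles are the same under any constant divisor per list. By level, the stiff-gel value was the only start-peak ratio of the 6 genes past 1.5-fold in any comparison, a change that 4.69% of start peaks showed downwards and 4.78% upwards, and the soft-gel counterparts were 6.47% and 7.43%. The ratio stayed below 0 in the 4 other scalings tried, though fold enrichment and equal numbers of peaks move such ratios downwards. Whether it passed 1.5-fold depended on the scaling. On stiff gel it was -0.44 when scaled to regions in all 4 lists and -0.50 against shared regions within 5 Mb, both short of 1.5-fold. Scaled to equal numbers of peaks, CAV2 on soft gel, at -0.75, and CAVIN3 on soft gel, at -0.66, passed it too. On fold enrichment, all 6 genes passed it downwards on soft gel and 4 on stiff gel. The median of all shared regions passed it there too, at -0.71 on soft and -0.59 on stiff gel. Among shared regions of the genome with a mean level of at least 2, 86.3% on soft and 72.4% on stiff gel did so. The summit lay 289 to 291 bp before the first start, just outside the sequence shown, and its position hardly moved between lists.

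Several other elements near the caveolin pair had lower levels in selected cells. The median log2 ratio of shared regions within 5 Mb of CAV2 was 0.04 on soft and -0.11 on stiff gel. The region chr7:116465828-116466593 in the noncoding gene CAV2-DT was higher in selected cells on soft gel, at 1.25 against 0.982. On stiff gel it was lower, at 1.07 against 1.30, with 0 inside both counting intervals. A region 40658 bp before CAV2 (chr7:116458517-116460932), inside the noncoding gene CAV2-DT, had levels of 2.02 on soft and 1.52 on stiff gel in selected cells, against 2.76 on soft and 3.57 on stiff gel in ancestral cells. Its log2 ratio of selected over ancestral cells was -0.45 on soft gel (-0.79 to -0.12) and -1.23 on stiff gel (-1.58 to -0.90). Its width followed, at 1349 and 1633 bp in selected cells on soft and stiff gel against 1714 and 2416 bp in ancestral cells. The region 2517 bp before CAV1 (chr7:116522170-116523033) had levels of 1.37 and 1.62 in selected cells on soft and stiff gel, against 2.14 and 2.67 in ancestral cells on soft and stiff gel, with log2 ratios of -0.64 (-1.04 to -0.25) and -0.72 (-1.07 to -0.38). A region beyond CAV1 in the noncoding gene COMETT (chr7:116587692-116589422) had 5.75 and 5.54 in selected cells, against 7.60 and 7.94 in ancestral cells, on soft and stiff gel. Its neighbour chr7:116576551-116577735 lay the other way by a small amount and by level only, with 2.55 and 3.55 in selected cells against 2.25 and 3.32 in ancestral cells. Between the genes, the region chr7:116511205-116513221 was the highest assigned to CAV2, with levels of 6.14 and 7.88 in selected cells on soft and stiff gel, against 6.53 and 9.71 in ancestral cells. Here the ratio on soft gel, -0.09, had a counting interval that held 0 (-0.29 to 0.10), and that on stiff gel was -0.30 (-0.46 to -0.15).

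The body of CAV1 held only weak regions. Of 5 such regions in it, 0 were listed for selected cells on soft gel, and their highest level in any list was 0.571. The region chr7:116540892-116542127 had 0.571 in selected cells on stiff gel, 0.369 on soft and 0.386 on stiff gel in ancestral cells. On soft gel, 0 regions assigned to CAV1 or CAV2 were in the selected list alone, and 3 of CAV1 and 2 of CAV2 were in the ancestral list alone. In the genome, 30.3% of the regions in either soft-gel list were in the selected list alone and 13.3% in the ancestral list alone. Within 5 Mb around CAV1 the same balance was 24 selected-only against 40 ancestral-only regions of 219, so the surroundings leaned the same way. The lowest level a list holds bears on this: 0.529 and 0.464 in selected cells on soft and stiff gel, against 0.279 and 0.280 in ancestral cells. Of the 11 ancestral-only regions on soft gel over all 6 genes, 6 had levels below the lowest of the selected list, so their absence there cannot be told apart from this floor.

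**Figure D2:**
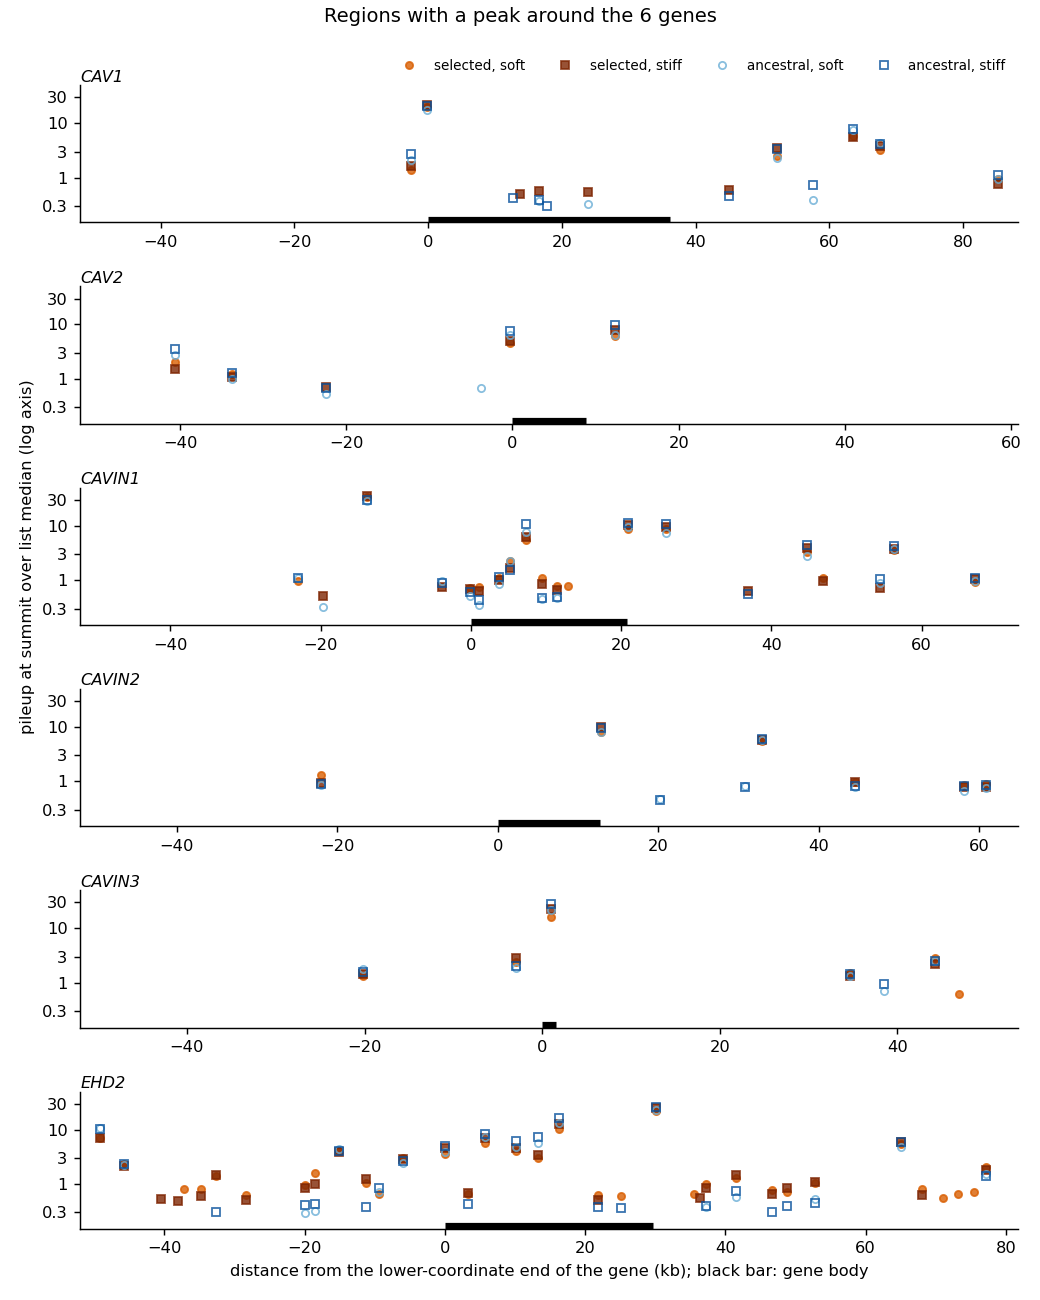
Level of every region around each gene (log axis) against the distance of its summit from the lower-coordinate end of the gene in kb, with filled symbols for selected and open symbols for ancestral cells. EHD2 has many weak regions with filled symbols and no open circle, while the strong regions of every gene carry all 4 symbols.

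CAVIN1 encodes cavin-1, the coat protein without which caveolae do not form. Its start peak, at the higher-coordinate end of the gene (chr17:42419465-42424188), had a level of 8.57 on soft and 10.4 on stiff gel in selected cells, against 9.33 on soft and 11.4 on stiff gel in ancestral cells. The log2 ratio of selected over ancestral cells was -0.12 on soft gel (-0.29 to 0.04) and -0.13 on stiff gel (-0.28 to 0.00), with 0 inside both intervals. Scaled to regions in all 4 lists, the stiff-gel value was 0.03. The lists also differed in how they divided this region into peaks. Peaks over 3 kb made up 6.29% and 5.74% of the whole lists of selected cells on soft and stiff gel, against 3.99% and 4.69% in ancestral cells. In both selected lists a single peak of 4654 and 4625 bp covered the region, while both ancestral lists split it into 2 peaks, the higher measuring 2625 and 2798 bp and the pair together 3750 and 4066 bp.

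Inside CAVIN1, the region chr17:42409062-42410684 had levels of 5.59 and 6.09 in selected cells on soft and stiff gel, against 7.71 and 10.8 in ancestral cells on soft and stiff gel. Its log2 ratio of selected over ancestral cells was -0.46 (-0.66 to -0.27) on soft gel and -0.82 (-0.99 to -0.65) on stiff gel. The next region, chr17:42410878-42412542, went the other way, with 1.10 and 0.857 in selected cells against 0.441 and 0.477 in ancestral cells. In undivided pileup this weak region had 56 and 48 in selected cells on soft and stiff gel, against 49 and 63 in ancestral cells. Undivided, which is not scaled to depth, it was higher in selected cells on soft gel only. Its fold enrichment was 3.94 and 3.60 in selected cells on soft and stiff gel, against 2.89 and 3.02 in ancestral cells. The highest region of the window, chr17:42387001-42389420 in the flank at an end of STAT3, had levels of 33.8 and 34.7 in selected cells, against 28.5 and 29.7 in ancestral cells, on soft and stiff gel. Its log2 ratios were 0.25 (0.16 to 0.33) and 0.23 (0.15 to 0.31), while its fold enrichment was lower in selected cells on each gel. A flanking region, chr17:42448615-42449803, was in the selected lists alone, at 1.12 on soft and 0.964 on stiff gel. The region chr17:42439123-42439413 was in both stiff lists alone, at 0.643 in selected and 0.568 in ancestral cells. Of 3 CAVIN1 regions in 3 lists, 2 lacked selected cells on soft gel and 1 lacked selected cells on stiff gel, with highest levels from 0.946 to 1.11.

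CAVIN2 encodes cavin-2, a coat protein that helps bend the membrane. The CAVIN2 start peak (chr2:191845067-191847897) had a level of 7.94 on soft and 10.1 on stiff gel in selected cells, against 8.01 on soft and 9.57 on stiff gel in ancestral cells. Selected and ancestral cells lay at almost the same height on each gel: the log2 ratio was -0.01 on soft gel (-0.19 to 0.16) and 0.08 on stiff gel (-0.06 to 0.23). The stiff-gel value turned to -0.51 on fold enrichment. Its summit fell 37 to 39 bp before the start in 3 lists and 103 bp before it in selected cells on stiff gel, inside the sequence shown. A region in CAVIN2-AS1 (chr2:191866463-191867913) was as even, with 5.55 and 5.89 in selected cells on soft and stiff gel, against 5.71 and 5.96 in ancestral cells. The regions chr2:191854486-191854816 and chr2:191864785-191865371 were in the ancestral lists alone, at 0.477 and 0.811 on soft gel. The first of these lay below the lowest level of the selected list on each gel, while the second lay above it.

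CAVIN3 encodes cavin-3, a coat protein known to bind a protein kinase C. Its start peak (chr11:6318574-6322621) covered the whole gene and had a level of 16.4 on soft and 22.3 on stiff gel in selected cells, against 21.8 on soft and 28.4 on stiff gel in ancestral cells. Selected cells were lower on each gel, with log2 ratios of -0.41 (-0.52 to -0.29) on soft and -0.35 (-0.44 to -0.25) on stiff gel, at the percentiles 12.3 and 13.9 of all start peaks. By level neither passed 1.5-fold, and both stayed below 0 in the 4 other scalings, though fold enrichment and equal numbers of peaks move such ratios downwards. Scaled to regions in all 4 lists they were -0.40 on soft and -0.18 on stiff gel. The summit was at the same base, 507 bp inside the higher-coordinate end, in all 4 lists, and the width varied only between 3884 and 4048 bp. A region below the gene (chr11:6315568-6316620) lay the other way by level, though not by fold enrichment. It had 2.37 and 2.79 in selected cells on soft and stiff gel, against 1.88 and 2.06 in ancestral cells. Its log2 ratio was 0.33 on soft gel, with an interval that held 0 (-0.0017 to 0.66), and 0.43 on stiff gel (0.14 to 0.72). A region at chr11:6357087-6357552 was in both ancestral lists alone, at 0.694 on soft and 0.955 on stiff gel.

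EHD2 encodes the ATPase that forms rings at the caveolar neck. The EHD2 start peak (chr19:47712979-47714554) was the lowest of the 6, with 3.57 on soft and 4.54 on stiff gel in selected cells, against 3.79 on soft and 4.92 on stiff gel in ancestral cells. Its log2 ratio of selected over ancestral cells was -0.09 on soft gel (-0.35 to 0.17) and -0.12 on stiff gel (-0.33 to 0.10). Scaled to regions in all 4 lists, the stiff-gel value was 0.05. The gene body held higher peaks than the start. The region chr19:47728204-47730588 had 10.3 and 12.8 in selected cells on soft and stiff gel, against 13.1 and 16.1 in ancestral cells on soft and stiff gel. The region chr19:47725197-47727471 had 3.06 and 3.36 in selected cells, against 5.68 and 7.36 in ancestral cells, on soft and stiff gel. Its log2 ratios, -0.89 on soft gel (-1.16 to -0.64) and -1.13 on stiff gel (-1.36 to -0.90), were the lowest of any region in the windows on soft gel and second lowest on stiff gel. The highest region, chr19:47739918-47745858 over the end of EHD2 and an end of NOP53, had 22.4 and 25.1 in selected cells and 22.8 and 26.1 in ancestral cells, on soft and stiff gel, and its selected over ancestral intervals held 0 on each gel.

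The window of EHD2 also held most of the regions listed for selected cells alone. Of 33 EHD2 regions in either soft-gel list, 15 belonged to selected cells alone and 0 to ancestral cells alone, beside 30.3% and 13.3% in the genome. With peaks of −log10 q of at least 10 these counts were 5 and 1 of 20, beside 10.9% and 22% in the genome. At equal list length they were 8 and 1 of 26, beside 21.2% and 17.1%. On stiff gel 6 of 31 belonged to selected and 2 to ancestral cells alone, beside 20.6% and 15.9% of regions in the genome. Within 5 Mb around EHD2, 41.9% of 1421 regions on soft gel belonged to selected cells alone and 4.71% to ancestral cells alone, so the surroundings leaned the same way. Of the 36 EHD2 regions, 18 lay within BICRA, NOP53 or SELENOW. The regions in the selected lists alone were chr19:47678263-47679395, chr19:47685022-47685560 and chr19:47781139-47781906, with levels from 0.518 to 0.824. All 6 regions that lacked only ancestral cells on soft gel were here. They made up 6.67% of the regions around all 6 genes, against 2.84% in the genome. Their levels in ancestral cells on stiff gel were only 0.303 to 0.432. The lowest level listed for ancestral cells on soft gel was 0.279, so absence there can hardly be told apart from this floor. The highest of the 6 was chr19:47679490-47682236, with 1.39 and 1.48 in selected cells on soft and stiff gel, against 0.311 in ancestral cells on stiff gel. The selected lists showed it 1900 and 2747 bp wide, against 389 bp.

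Most of the weak EHD2 regions that were shared had higher levels in selected cells. The region chr19:47694503-47697077 in BICRA had 1.57 and 1.00 in selected cells on soft and stiff gel, against 0.324 and 0.432 in ancestral cells on soft and stiff gel, log2 ratios of 2.27 (1.69 to 2.88) and 1.21 (0.65 to 1.77). Its undivided pileups, which are not scaled to depth, were 80 and 56 in selected cells and 36 and 57 in ancestral cells. Undivided it was thus higher in selected cells on soft gel only. Its fold enrichment was 5.60 and 4.19 in selected cells on soft and stiff gel, against 2.14 and 2.73 in ancestral cells. The region chr19:47750141-47751418 in NOP53 had 1.00 and 0.839 in selected cells, against 0.369 and 0.386 in ancestral cells, on soft and stiff gel. The selected lists hold no level under 0.529 on soft and 0.464 on stiff gel. Both regions were below that in ancestral cells, so as shared regions they had to come out higher in selected cells. Across the genome too, shared regions with a mean level under 2 had a median log2 ratio of 0.46 on soft and 0.25 on stiff gel, so higher levels of weak regions in selected cells were not limited to EHD2.

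**Figure D3:**
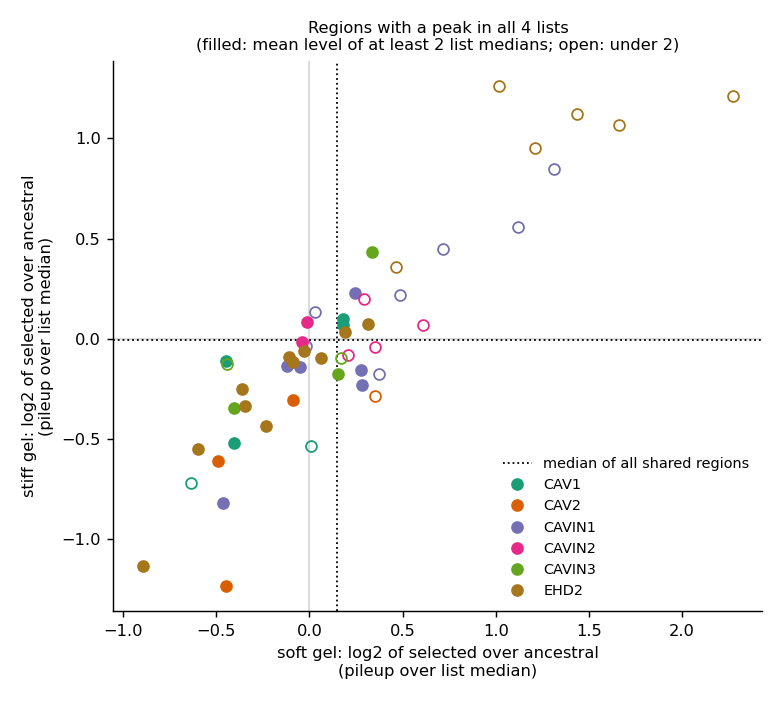
Log2 ratio of selected over ancestral level on soft gel (x axis) and on stiff gel (y axis) for the 51 regions in all 4 lists, coloured by gene, with dotted lines at the medians of all shared regions of the genome, 0.15 and 0.00. Open symbols, of mean level under 2, reach 2.27, while filled symbols, of at least 2, reach down to -0.89 on soft gel and -1.23 on stiff gel.

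Over all 6 genes, selected and ancestral cells on soft gel had 82 regions in either list, of which 18 were listed for selected cells alone (22.0%, exact binomial 95% interval 13.6 to 32.5%) and 11 for ancestral cells alone (13.4%, 6.89 to 22.7%). These stand beside 30.3% and 13.3% in the genome. The balance turned round with peaks of −log10 q of at least 10, where 7 regions belonged to selected and 12 to ancestral cells alone, and at equal list length, where 10 belonged to selected and 12 to ancestral cells alone. The genome's shares were then 10.9% and 22.0%, and 21.2% and 17.1%. On stiff gel 10 of 82 were listed for selected cells alone (12.2%, 6.01 to 21.3%) and 9 for ancestral cells alone (11.0%, 5.14 to 19.8%), where the genome had 20.6% and 15.9%. The stated intervals hold the genome's share in each of these comparisons, though regions of 1 gene share their surroundings and are not independent. Of the shared regions, 9 of 53 were at least 1.5-fold higher in selected cells on soft gel and 3 lower, against 26.0% and 7.94% in the genome. On stiff gel 11 of 63 were higher and 5 lower, against 18.8% and 11.2%. This split followed the scaling. On soft gel 7 were higher and 12 lower when scaled to equal numbers of peaks (genome 17.3% and 17.5%), and 2 higher and 35 lower on fold enrichment (genome 5.05% and 58.7%). On stiff gel 16 were higher and 3 lower when scaled to regions in all 4 lists (genome 24.3% and 6.35%), and 4 higher and 33 lower on fold enrichment (genome 5.46% and 50.6%). The median log2 ratio was 0.06 on soft gel and -0.04 on stiff gel, where all shared regions had 0.15 and 0.00. The soft-gel median turned to -0.021 at −log10 q of at least 10 and to -0.79 on fold enrichment, and the stiff-gel median turned to 0.13 when scaled to regions in all 4 lists.

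The direction went with peak height, and the lowest listed levels bear on this at weak regions. They are 0.529 on soft and 0.464 on stiff gel in selected cells, against 0.279 and 0.280 in ancestral cells. A shared region below the selected floor in ancestral cells must therefore come out higher in selected cells. Of the 30 shared regions with a mean level of at least 2 on soft gel, 0 were 1.5-fold higher in selected cells and 2 lower, both in the EHD2 window: chr19:47725197-47727471 and, in BICRA, chr19:47661409-47664929, with 7.02 in selected and 10.6 in ancestral cells. On stiff gel 0 of 30 were higher and 5 lower, namely the CAV2 start peak, chr7:116458517-116460932, chr7:116522170-116523033, chr17:42409062-42410684 and chr19:47725197-47727471. Across the genome 3.37% of such regions were higher and 11.4% lower on soft gel, and 2.06% higher and 14.2% lower on stiff gel. On fold enrichment 0 of these were higher and 27 lower on soft gel (genome 0.47% and 86.3%), and 0 higher and 23 lower on stiff gel (genome 0.8% and 72.4%). By level, the members' medians in this class, -0.07 on soft and -0.15 on stiff gel, lay near the genome's -0.08 and -0.17.

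**Figure D4:**
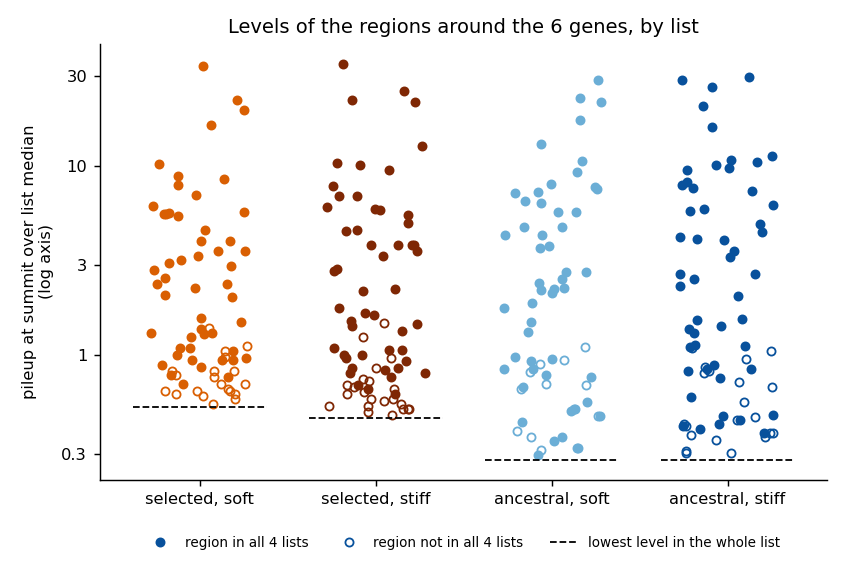
Levels of all regions around the 6 genes in each list (log axis), filled where the region is in all 4 lists and open where it is not, with a dashed line at the lowest level of the whole list. The line stands at 0.529 and 0.464 in selected cells and at 0.279 and 0.280 in ancestral cells, and no open symbol is above 1.48.

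The soft-gel level of every start peak was below the stiff-gel level in both populations. The log2 ratio of soft over stiff gel in ancestral cells ran from -0.38 for CAVIN3 to -0.25 for CAV2, beside a median of -0.26 over all start peaks. In selected cells it ran from -0.44 for CAVIN3 to -0.13 for CAV2, beside a median of -0.17, and the CAV2 interval there held 0 (-0.39 to 0.13). The ratios were below 0 in the 4 other scalings too. In selected cells, fold enrichment and equal numbers of peaks move such ratios downwards, so they are no check of this. In ancestral cells scaled to regions in all 4 lists, CAV1 was at -0.044, CAV2 at -0.032 and CAVIN1 at -0.070. CAVIN2 was at -0.041 and EHD2 at -0.16 there. Each of these lay within its counting error of 0, while CAVIN3, at -0.17, did not. In both populations, 0 of the 6 passed 1.5-fold by level, while on fold enrichment CAVIN3 did in selected cells, at -0.66. By level, 11.0% of all start peaks were at least 1.5-fold lower and 0.370% higher on soft gel in ancestral cells. In selected cells 12.7% were lower and 1.03% higher. On fold enrichment, 19.2% of the genome's shared regions with a mean level of at least 2 were lower in selected cells.

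Around the genes, ancestral cells had 75 regions on either gel, with 3 on soft and 11 on stiff gel alone, or 4.00% and 14.7% against 7.27% and 13.6% in the genome. Selected cells had 83, with 10 on soft and 12 on stiff gel alone, or 12.0% and 14.5% against 19.4% and 11.7% in the genome. Of 61 shared regions in ancestral cells, 0 were 1.5-fold higher on soft gel and 2 lower (genome 1.19% and 8.87%). Scaled to regions in all 4 lists these counts were 1 and 1 (genome 4.41% and 2.54%). By level, the lower ones were chr7:116582186-116583380, at 0.396 on soft and 0.720 on stiff gel, and chr17:42446726-42447690, at 2.74 on soft and 4.50 on stiff gel. In selected cells 1 of 61 was higher and 0 lower (genome 3.95% and 3.76%), the BICRA region chr19:47694503-47697077, and on fold enrichment 0 were higher and 2 lower (genome 0.59% and 10.6%). Regions in both soft lists alone numbered 0, and those in both stiff lists alone numbered 2, at CAVIN1 as above and at CAV1 (chr7:116569886-116570521, 0.589 in selected and 0.470 in ancestral cells).

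Widths differed mostly at weak regions. In selected against ancestral cells on soft gel 6 of 53 shared regions were at least 1.5-fold wider and 1 narrower (genome 18.8% and 9.70%), and on stiff gel 8 of 63 were wider and 7 narrower (genome 12.7% and 14.2%). The wider regions on stiff gel were in the EHD2 window except chr17:42403003-42405301 in CAVIN1, which measured 2274 bp in selected and 997 bp in ancestral cells. In soft against stiff gel, 0 regions were wider and 7 narrower in ancestral cells (genome 3.96% and 9.97%), and 8 wider and 4 narrower in selected cells (genome 13.3% and 5.96%). The CAV1 start peak kept nearly the same width, 4051 and 4026 bp in selected cells on soft and stiff gel against 4219 and 4242 bp in ancestral cells.

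**Figure D5:**
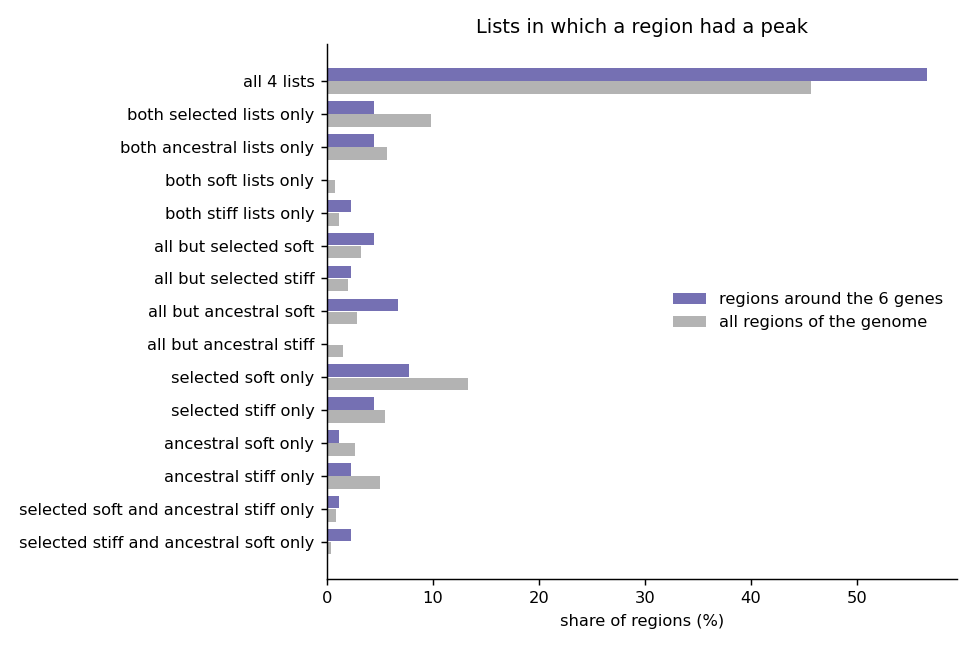
Share of regions (%) with a peak in each combination of the 4 lists, for the 90 regions around the 6 genes (upper bar of each pair) and all regions of the genome (lower bar). Regions in all 4 lists made up 56.7% around the genes and 45.6% in the genome, and regions in both selected lists alone 4.44% and 9.78%.

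Of the 90 regions, 51 (56.7%) were in all 4 lists, against 45.6% of regions in the genome. In 1 list only were 14 regions (15.6%), against 26.4% in the genome. Regions in both selected lists alone made up 4.44%, against 9.78%, and those in both ancestral lists alone 4.44%, against 5.63%. Numbers skipped in the peak names mark places where a list may lack a peak. The only one in these windows was in ancestral cells on stiff gel, somewhere in chr17:42469837-42524067, of which 3420 bp reach into the CAVIN1 window, 46581 bp from the gene. No member region there was left undetermined. The peaks nearest the 50 kb limit lay 40.6 to 49.1 kb from a gene on the inside, with levels from 0.608 to 10.6, and 51.7 to 60.9 kb on the outside, with levels from 0.417 to 4.84.

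Among all 13231 genes with a start peak in every list, those whose 4 log2 levels, each centred on its gene's mean, lay nearest to CAV1 were DLD (distance 0.009), DEF8 and DUSP10. For CAVIN1 they were CNOT8 (0.007), FAM114A2 and MFAP3, the last pair sharing 1 peak. The median distances were 0.297 and 0.312, and with 4 lists such closeness describes the levels only. Of the other members, CAVIN2 was nearest to CAV1 at 0.169 and CAV2 farthest at 0.674, while EHD2 was nearest to CAVIN1 at 0.086.

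Other genes of caveola biology were read from a list of 20, of which 16 had a start peak in all 4 lists. CAVIN4, a muscle cavin, and BMX had none in any list. EHD3, a relative of EHD2, had 1.89 on soft and 1.92 on stiff gel in ancestral cells and no start peak in either selected list. FLNA, which links caveolae to actin, had 12.9 and 14.0 in selected cells on soft and stiff gel and was undetermined in both ancestral lists. In selected against ancestral cells on soft gel 4 were 1.5-fold higher (PACSIN1, CSK, PTGIS, NOS3) and 1 lower (CAV3), and on stiff gel 3 were higher (PACSIN1, PTGIS, NOS3) and 1 lower (CAV3). Over all start peaks, 7.43% were higher and 6.47% lower on soft gel, and 4.78% higher and 4.69% lower on stiff gel. Undivided, the weak peaks among them differed less. PACSIN1 had pileups of 64 and 66 in selected cells on soft and stiff gel, against 45 and 64 in ancestral cells, and NOS3 had 93 and 104 in selected cells, against 80 and 116 in ancestral cells. PTGIS had 97 and 83 in selected cells, against 39 and 52 in ancestral cells, on soft and stiff gel. On fold enrichment PACSIN1 and PTGIS passed upwards on each gel, while 8 genes on soft gel and 7 on stiff gel passed downwards. Of all shared regions in the genome, 58.7% on soft and 50.6% on stiff gel passed downwards on fold enrichment, and 5.05% and 5.46% upwards. Among those with a mean level of at least 2, 86.3% and 72.4% passed downwards, and 0.47% and 0.8% upwards. No share over start peaks alone is given for fold enrichment. CAV3, the muscle caveolin, had 0.980 and 1.89 in selected cells on soft and stiff gel, against 2.30 and 2.87 in ancestral cells. In soft against stiff gel, TGFBR1 was lower in ancestral cells, and in selected cells CSK was higher and CAV3, SRC, INSR and TGFBR1 were lower, beside 11.0% lower in ancestral cells and 1.03% higher and 12.7% lower in selected cells over all start peaks. The medians of the list were 0.19 and 0.05 for selected over ancestral cells on soft and stiff gel, and -0.25 and -0.19 for soft over stiff gel in ancestral and in selected cells, beside 0.02, -0.04, -0.26 and -0.17 over all start peaks. DNM2, the dynamin that cuts caveolae from the membrane, was the highest of the list, at 46.7 and 46.8 in selected cells on soft and stiff gel, against 37.5 and 40.5 in ancestral cells.

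The line was checked against 5 of its markers. VIM had 21.0 and 25.5 in selected cells on soft and stiff gel and 23.4 and 27.6 in ancestral cells, ZEB1 was in all 4 lists, CD44 was in both selected lists and undetermined in both ancestral lists, and AXL and FOSL1 were undetermined in all 4. Of 12 markers of other cell types, 5 had a start peak in all 4 lists (PGR, GATA3, EPCAM, CD3E, CAV3), with levels from 0.606 to 12.6, and PTPRC, ALB and PECAM1 had none in any. CDH1 was in 2 lists, MYOG in 3, and KRT19 was undetermined. ESR1 was listed only in ancestral cells on stiff gel, at 0.417. An open start does not show that a gene is transcribed, and the part of other cells in these values was not tested.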

How the data were processed

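Per the labels' protocols, nuclei came from 200000 cells per sample. Tools named in the submitters' processing notes are MACS2 2.2.7.1, Bowtie2 2.4.5 and Trimmomatic 0.36, with FastQC 0.11.4 and MultiQC 1.1 for quality, and the build is GRCh38. Per the file headers, each deposited list gives the peak position and width, the signal as a pileup at its summit, the fold enrichment over the authors' background, and −log10 q-values and p-values. The pileup is a whole number, not scaled to depth. Depth per sample, caller options and the way the 4 samples of a group were combined were "not given in the sources used here". The lists hold 129755 and 122591 peaks for selected cells on soft and stiff gel, and 109578 and 116043 for ancestral cells, with 1311, 1240, 1107 and 1173 skipped peak numbers in the same order. A region was undetermined in a list with no peak there and a skipped number at that stretch.

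Computed here were the merged regions, the level (pileup over list median), log2 ratios with exact binomial 95% counting intervals, and Poisson intervals of levels, using scipy 1.17.1 with pandas 2.3.3 and numpy 2.4.6 in python 3.11.15, and matplotlib 3.10.9 for figures. Regions near CAV1 and CAV2 went to the body they lie in, or else to the nearer gene. Undetermined regions were left out of the comparisons they touch. The −log10 p-value was not used. Named were all 6 genes, their start peaks and highest regions, regions in 3 lists or in a matching pair, at most 5 per gene, and list genes with a start peak missing somewhere. Other regions were named after their values were seen. The members and lists were chosen with earlier results of these data known. The steps were tested on simulated data. Alternatives changed overlap, q-value limit, list length, window, start distance and scaling.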

Additional observations from a re-analysis of the deposited data

Results flagged for a closer look

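In 2 regions near CAVIN1, of 51 regions in all 4 lists, selected cells had higher levels than ancestral cells on soft gel and lower on stiff gel. The counting intervals left out 0 on both gels, but most only narrowly. These opposite directions depended on the scaling. The region chr17:42427841-42429091 had levels of 8.86 in selected and 7.32 in ancestral cells on soft gel, and 9.50 in selected and 10.6 in ancestral cells on stiff gel. Its log2 ratios of selected over ancestral cells were 0.28 on soft gel (0.11 to 0.44) and -0.15 on stiff gel (-0.30 to -0.0086). The region chr17:42446726-42447690 had 3.33 in selected and 2.74 in ancestral cells on soft gel, and 3.84 in selected and 4.50 in ancestral cells on stiff gel. Its log2 ratios were 0.28 on soft gel (0.0040 to 0.56) and -0.23 on stiff gel (-0.46 to -0.0016). On the authors' fold enrichment, selected cells were lower in both regions on both gels, with log2 ratios of -0.59 and -0.75 on soft and stiff gel for the first region and -0.58 and -0.82 for the second. Scaled to equal numbers of peaks, the soft-gel ratios were 0.017 and 0.025 for the first and second region. Scaled to regions in all 4 lists, the stiff-gel ratio of the first region was 0.012. The medians of all shared regions by level were 0.15 on soft gel and 0.00 on stiff gel. Both soft-gel intervals held that soft-gel median. The difference between the gels was not tested, since each group has 1 list.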

How the results depend on the processing

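No paired analysis was possible because each group has 1 deposited list and no values per sample. Directions changed with the scaling, and the cause of the moves below was not tested. The CAV2 start peak on stiff gel, past 1.5-fold by level, stayed below 0 in the 4 other scalings. Among these, fold enrichment and equal numbers of peaks move such ratios downwards. Signs changed in some scaling for 5 of the 24 start-peak ratios, all of selected over ancestral cells: CAV1 on both gels and, on stiff gel, CAVIN1, CAVIN2 and EHD2. Of 96 start-peak values under other scalings, 47 moved beyond counting error, and for selected over ancestral cells they ran from -1.35 to 0.18 (soft gel) and -1.20 to 0.26 (stiff gel), while for soft over stiff gel they ran from -0.34 to -0.032 in ancestral and -0.66 to -0.078 in selected cells. Medians of log2 ratios are given for selected over ancestral cells on soft gel, then stiff gel, then for soft over stiff gel in ancestral, then selected cells. Counts and medians not listed moved by at most 1.5 times or by no more than counting error, and width medians by less than the spread between regions. With peaks of −log10 q of at least 10 the first, second and last medians became -0.021, -0.10 and -0.10. The third minus that of all shared regions became -0.015. Of 62 regions, 7 then belonged to selected and 12 to ancestral cells alone on soft gel (genome 10.9% and 22%). On stiff gel 14 of 65 belonged to ancestral cells alone (genome 24.2%). Between gels, 1 and 4 of 59 regions were then on soft and stiff gel alone in ancestral cells, and 2 and 3 of 53 in selected cells. Joining gaps of 500 bp left 6 of 65 regions on stiff gel alone in ancestral cells. At equal list length, 10 of 74 regions belonged to selected and 12 to ancestral cells alone on soft gel (genome 21.2% and 17.1%). On stiff gel they were 5 and 10 of 74 (genome 16.9% and 17.3%). In selected cells, 4 and 6 of 68 were then on soft and stiff gel alone. For joined gaps and for these between-gel counts no share over the genome is given, so they are no result about the members. In a 10 kb window, 5 of 36 regions belonged to selected and 5 to ancestral cells alone on soft gel (genome 30.3% and 13.3%). On stiff gel they were 3 and 5 of 38 (genome 20.6% and 15.9%). In ancestral cells 6 of 37 were on stiff gel alone (genome 13.6%). In selected cells 4 and 6 of 37 were on soft and stiff gel alone (genome 19.4% and 11.7%). The medians in this window were -0.021, 0.0059, -0.26 and -0.13, and minus those of all shared regions -0.17, 0.0091, -0.070 and -0.16. Scaled to regions in all 4 lists, the last 3 medians became 0.13, -0.0099 and 0.026. On fold enrichment the medians were -0.79, -0.62, -0.18 and -0.24, on equal numbers of peaks -0.19, -0.083, -0.080 and -0.091, and against shared regions within 5 Mb -0.033, -0.0014, -0.0056 and -0.062. Among regions of mean level of at least 2, an alternative chosen after seeing the data, the medians minus that of the genome were 0.014, 0.022, -0.014 and -0.0049. The lowest levels listed, 0.529 and 0.464 in selected and 0.279 and 0.280 in ancestral cells, limit which weak peaks can be seen as lost. They also limit which weak shared regions can be seen as lower in selected cells.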
